A study of Mus musculus with 12 samples.

Results

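Immediate early genes are switched on within a short time of a signal, from factors the cell already holds and with no new protein needed. MAP kinases and the cAMP pathway act on SRF with its ternary complex partners and on CREB at their promoters, and many of the products are transcription factors that drive a later wave of genes. They are also known to rise when a tissue is cut and digested with warm enzymes, so in a cell suspension their RNA may come from the tissue or from its preparation.

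The 10 immediate early genes Fos, Fosb, Jun, Junb, Jund, Atf3, Egr1, Ier2, Dusp1 and Nr4a1 were followed here, out of 21743 genes in the count table. They were taken by name, with earlier results of these data known, and all 10 passed the filter on low counts in each comparison below. Fos, Fosb, Jun, Junb and Jund encode the leucine zipper proteins that pair to form AP-1. Atf3 encodes a related ATF/CREB family factor, Egr1 a zinc finger factor, Nr4a1 an orphan nuclear receptor, Ier2 a nuclear protein of the early response and Dusp1 a phosphatase that switches off MAP kinases.

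Drop-seq was run on dissociated mammary gland and mammary tumor of 2 Brca1-deficient mice, a method that tags each transcript's 3′ end with a cell barcode and a unique molecular identifier (UMI). MG1 and MT1 are the gland and the tumor of the first mouse, with 2 and 5 libraries, and MG2 and MT2 those of the second, with 2 and 3 libraries. Each group is thus 1 tissue of 1 mouse, and its libraries are repeats of that tissue. The 12 libraries held 21157 cells, of which 20040 lay outside the 3 stromal clusters (fibroblast-like, immune-like, endothelial-like) and were summed per library for the comparisons between groups.

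All 4 groups come from mice that the paper calls Brca1 mutant. Its Brca1 mutant model is MMTV-Cre with Brca1 flox/flox, in mice of mixed C57BL/6 and 129/Sv strain. It does not list further alleles for these mice, and no drug treatment is named for any group. The MMTV promoter drives Cre mainly in mammary epithelium, so stromal and blood cells may keep intact alleles, and no group without the deletion was compared. Ages of the animals were not used here. Tissue was minced, digested with collagenase and hyaluronidase for about an hour with warming, treated with dispase, DNase and trypsin, strained, and depleted of blood-lineage and endothelial cells. The tissues were thus all exposed to warm enzymes, and how long each single library waited, or on which day it was made, is not in the labels.

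Total UMIs per library ran from 693333 in MG1 replicate 2 (105 cells) to 14841414 in MT2 replicate 1, and the median UMIs per cell from 1784 to 4842. The median share of mitochondrial UMIs was 4.476 to 11.495%, highest in MG1 replicate 1. Brca1 transcripts were read at 0 CPM (counts per 1000000 UMIs) in both MG1 libraries, at 2.26 and 2.60 CPM in MG2 and at 7.42 to 17.2 CPM in the tumor libraries, and tags from the 3′ end cannot tell an excised allele from an intact one. Libraries shared 0 to 7 cell barcodes in any pair. The tissue label was checked against markers. Epcam, which marks epithelium, was at 3431 to 4244 CPM in the luminal gland clusters and at 1607 and 3049 CPM in MT1 clusters 3 and 4, but at 193 CPM in MT1 cluster 5 and at 2.19 and 5.13 CPM in MT2 clusters 1 and 2, where the mesenchymal gene Vim was at 3814 and 3790 CPM. The keratin gene Krt8 was at 296 and 308 CPM there, beside 4073 and 2965 CPM in the hormone-sensing-like cells of MG1 and MG2 and 107 CPM in the fibroblast-like cells of MT2. The main MT2 cells thus had Epcam near 0, and are called here by cluster number.

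The upstream sequence of 4 members is shown because these genes behave differently below: Fos, Jun and Nr4a1 are among the members lowest in MT2, and Dusp1 goes the other way. They were picked with the levels known. Each run is the 250 bases before the RefSeq transcript start, from the RefSeq table for GRCm38.p6, written 5′ to 3′ on the gene's strand. Capitals mark the CRE core TGACG or its reverse complement CGTCA, the centre of sites that CREB and ATF proteins are known to bind, and the longer CRE-like word TGACNTCA (or TGANGTCA on the other strand). Fos lies at chr12:85473640-85473889 on the plus strand, Jun at chr4:95052223-95052472 on the minus strand, Nr4a1 at chr15:101266596-101266845 on the plus strand and Dusp1 at chr17:26508473-26508722 on the minus strand.
Fos: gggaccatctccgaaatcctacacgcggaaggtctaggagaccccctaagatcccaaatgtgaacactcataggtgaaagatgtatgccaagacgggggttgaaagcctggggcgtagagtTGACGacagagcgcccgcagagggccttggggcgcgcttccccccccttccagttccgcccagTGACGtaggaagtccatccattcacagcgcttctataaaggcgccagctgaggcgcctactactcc
Jun: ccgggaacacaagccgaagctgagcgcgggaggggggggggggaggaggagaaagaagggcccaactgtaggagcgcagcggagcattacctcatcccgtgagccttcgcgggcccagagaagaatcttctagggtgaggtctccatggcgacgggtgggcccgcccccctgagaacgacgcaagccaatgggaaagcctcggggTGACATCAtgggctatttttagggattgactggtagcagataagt
Nr4a1: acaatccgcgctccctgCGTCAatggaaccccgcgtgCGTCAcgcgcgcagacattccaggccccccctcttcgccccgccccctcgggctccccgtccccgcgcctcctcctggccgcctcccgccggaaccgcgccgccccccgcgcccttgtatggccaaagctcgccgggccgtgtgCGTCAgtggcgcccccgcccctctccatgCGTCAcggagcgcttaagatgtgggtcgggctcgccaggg
Dusp1: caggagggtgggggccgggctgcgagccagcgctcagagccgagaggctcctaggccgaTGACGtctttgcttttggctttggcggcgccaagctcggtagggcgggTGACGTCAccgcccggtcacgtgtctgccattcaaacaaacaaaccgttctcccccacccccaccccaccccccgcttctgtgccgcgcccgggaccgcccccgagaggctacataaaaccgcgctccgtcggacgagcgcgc

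Promoter sequence was matched for 8 of the 10 members, all but Egr1 and Ier2. On either strand TGACG was found in 6 of the 8 windows, against 17.8% of 32851 windows of this length. Fos held it at -129 and -66 from the transcript start, Nr4a1 at -233, -213, -69 and -40, and Dusp1 at -191, -143 and -140, while Fosb (-60), Junb (-106) and Atf3 (-7) held 1 each. TGACNTCA stood in 7.49% of all windows and in 2 of the 8, as TGACATCA at -45 in Jun and as TGACGTCA at -143 in Dusp1, where it spans the TGACG at -143 and the CGTCA at -140. The AP-1 word TGANTCA, in 6.75% of all windows, and the CArG box that SRF is known to bind, in 1.47%, were in none of these 8 windows. These are matches of letters within a short window and not binding sites.

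In GENCODE vM21 on GRCm38 all 10 are protein-coding genes. Fos is at chr12:85473890-85477273, Fosb at chr7:19302696-19310051, Jun at chr4:95049034-95052222, Junb at chr8:84974484-84978718 and Jund at chr8:70698949-70700616. Atf3 is at chr1:191170296-191218039, Egr1 at chr18:34859823-34864984, Ier2 at chr8:84661331-84662852, Dusp1 at chr17:26505590-26562128 and Nr4a1 at chr15:101254269-101274795. The Nr4a1 and Dusp1 windows above lie inside these spans.

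The first comparison asks how the level of each member differs between a mouse's tumor and its own gland, and whether the second mouse repeats the first. In MT2 against MG2, 9 of the 10 members fell and Dusp1 rose. In MT1 against MG1, Fosb, Egr1, Jun, Jund and Junb fell and Ier2 rose, while Fos, Atf3, Dusp1 and Nr4a1 did not pass the test. Across all 13666 genes tested, 34.2% fell and 32.6% rose in MT2 against MG2, and 27.1% fell and 32.3% rose in MT1 against MG1. CPM ranges of tumor and gland did not overlap for 10 of 10 members in the second mouse and for 81.0% of all genes, and for 4 of 10 members (Fosb, Junb, Egr1 and Ier2) in the first mouse and for 62.5% of all genes. The p-values measure the spread between libraries of the same tissue and not between animals.

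**Figure D1:**
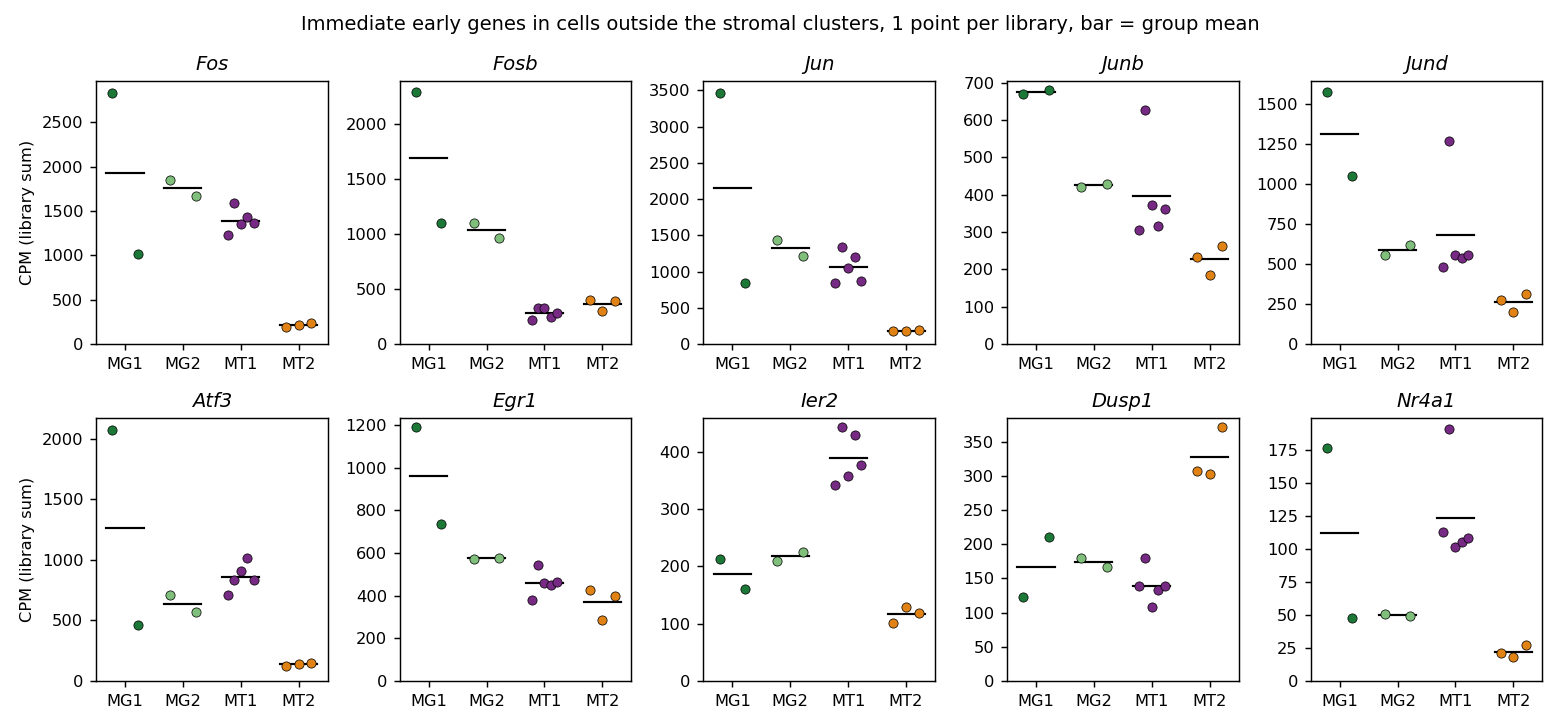
Level of each of the 10 immediate early genes in each of the 12 libraries, in CPM on linear axes that start at 0, with points for libraries and bars for group means (n = 2 for each gland, 5 for MT1 and 3 for MT2). Fos, Jun and Atf3 are lowest in the 3 MT2 libraries, and for these genes the 2 MG1 libraries stand far apart.

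Among the AP-1 genes, Fos, the main partner of the Jun proteins, stood at 2834 and 1015 CPM in the MG1 libraries, 1854 and 1667 CPM in those of MG2, 1228, 1589, 1355, 1433 and 1362 CPM in those of MT1 and 197, 214 and 235.5 CPM in those of MT2. The 3 MT2 libraries lay far below all others, and the MT1 values lay between those of the 2 MG1 libraries. Fos was thus 8.18-fold lower in MT2 than in MG2 (log2 difference -3.03, SE 0.28, adjusted p = 2.68e-08 by edgeR's quasi-likelihood test), and in MT1 against MG1 the log2 difference was -0.48 (SE 0.24, adjusted p = 0.103).

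Fosb, a Fos family protein, was read at 2291 and 1106 CPM in the MG1 libraries, 1106 and 969.5 CPM in those of MG2, 223, 331.5, 331, 246 and 279.6 CPM in those of MT1 and 399.7, 303.5 and 397 CPM in those of MT2. Every tumor library of either mouse lay below every gland library. Its fall was 6.04-fold in MT1 (log2 difference -2.60, SE 0.21, adjusted p = 3.31e-08) and 2.83-fold in MT2 (-1.5, SE 0.24, adjusted p = 2.91e-05). Unlike for Fos, the MT2 mean (367 CPM) was not below the MT1 mean (282 CPM), and the ranges of the tumors overlapped.

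Jun, the central AP-1 subunit, had 3465 and 842 CPM in the MG1 libraries, 1435 and 1219 CPM in those of MG2, 844, 1338, 1047, 1202 and 872 CPM in those of MT1 and 187, 184 and 190.1 CPM in those of MT2. MG1 replicate 1 was the highest of the 12 libraries, MG1 replicate 2 lay just under the lowest MT1 library, and the 3 MT2 libraries were the lowest and lay close together. Jun fell 7.10-fold in MT2 against MG2 (log2 difference -2.83, SE 0.36, adjusted p = 1.70e-06) and 2.05-fold in MT1 against MG1 (-1.03, SE 0.31, adjusted p = 0.00872). Without MG1 replicate 1 the MT1 difference was 0.35 (adjusted p = 0.208).

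For Junb, a Jun family member that often restrains Jun, levels were 669 and 679.7 CPM in the MG1 libraries, 422 and 429 CPM in those of MG2, 304.5, 628, 372, 318 and 362 CPM in those of MT1 and 234, 186 and 263.5 CPM in those of MT2. The MG1 libraries were nearly equal, and MT1 replicate 2 stood close to them and above the other 4 MT1 libraries. Junb fell 1.70-fold in MT1 (log2 difference -0.77, SE 0.22, adjusted p = 0.00644) and 1.87-fold in MT2 (-0.90, SE 0.24, adjusted p = 0.00301).

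Jund, the Jun family member known to be present in resting cells, was at 1576 and 1050 CPM in the MG1 libraries, 561 and 620.5 CPM in those of MG2, 483, 1271, 556, 537 and 560 CPM in those of MT1 and 277, 201 and 312 CPM in those of MT2. MT1 replicate 2 was again apart from its group and overlapped MG1. The log2 differences were -0.95 in MT1 against MG1 (SE 0.29, adjusted p = 0.00912) and -1.17 in MT2 against MG2 (SE 0.32, adjusted p = 0.00399). Without MG1 replicate 1 the MT1 difference was -0.61 and lost its call (adjusted p = 0.159).

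Atf3, a factor that rises in many kinds of cell stress, was at 2078 and 458 CPM in the MG1 libraries, 706 and 570.2 CPM in those of MG2, 706, 837.5, 911, 1014 and 831 CPM in those of MT1 and 127, 144 and 146 CPM in those of MT2. MG1 replicate 1 was above, and MG1 replicate 2 below, all 5 MT1 libraries, and the MT2 libraries were the lowest. Atf3 was 4.6-fold lower in MT2 than in MG2 (log2 difference -2.20, SE 0.36, adjusted p = 2.89e-05), and MT1 differed from MG1 by -0.58 (SE 0.32, adjusted p = 0.128).

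Egr1, a growth factor and stress response factor, was at 1188 and 736 CPM in the MG1 libraries, 571 and 577 CPM in those of MG2, 377, 543, 460.1, 447 and 464 CPM in those of MT1 and 428, 284 and 398 CPM in those of MT2. Tumor libraries lay below the gland libraries of the same mouse, with MT1 and MT2 overlapping each other. Egr1 fell 2.11-fold in MT1 (log2 difference -1.08, SE 0.19, adjusted p = 0.000104) and 1.55-fold in MT2 (-0.63, SE 0.21, adjusted p = 0.0126), the second of which lost its call when either MG2 library or MT2 replicate 2 was left out (log2 differences from -0.77 to -0.47 over all libraries left out in turn, adjusted p up to 0.0780).

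Nr4a1 stood at 176 and 48.0 CPM in the MG1 libraries, 51.0 and 48.9 CPM in those of MG2, 113, 191, 102, 106 and 109 CPM in those of MT1 and 21.1, 18.3 and 27.0 CPM in those of MT2. MG1 replicate 1 was in the range of MT1, MG1 replicate 2 was at the level of MG2, and MT2 was lowest. Nr4a1 fell 2.26-fold in MT2 against MG2 (log2 difference -1.17, SE 0.33, adjusted p = 0.00492), and in MT1 against MG1 the log2 difference was 0.00 (SE 0.31, adjusted p = 1.0).

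Ier2 fell and Dusp1 rose in MT2, while in MT1 Ier2 rose and Dusp1 did not pass the test. Ier2 was at 213 and 160.4 CPM in the MG1 libraries, 209.9 and 225.5 CPM in those of MG2, 342, 442, 358, 428.5 and 376 CPM in those of MT1 and 102, 129.6 and 118 CPM in those of MT2. All MT1 libraries lay above, and all MT2 libraries below, every gland library. Ier2 rose 2.05-fold in MT1 (log2 difference 1.04, SE 0.17, adjusted p = 6.11e-05) and fell 1.87-fold in MT2 (-0.90, SE 0.17, adjusted p = 0.000116).

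Dusp1 was at 123 and 210 CPM in the MG1 libraries, 181 and 166.5 CPM in those of MG2, 139, 179, 108, 133 and 138 CPM in those of MT1 and 307, 302.5 and 372 CPM in those of MT2. The 3 MT2 libraries were the highest of the 12, and MT1 and the glands overlapped. Dusp1 rose 1.89-fold in MT2 against MG2 (log2 difference 0.91, SE 0.21, adjusted p = 0.00106), and in MT1 against MG1 the log2 difference was -0.21 (SE 0.21, adjusted p = 0.406).

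**Figure D2:**
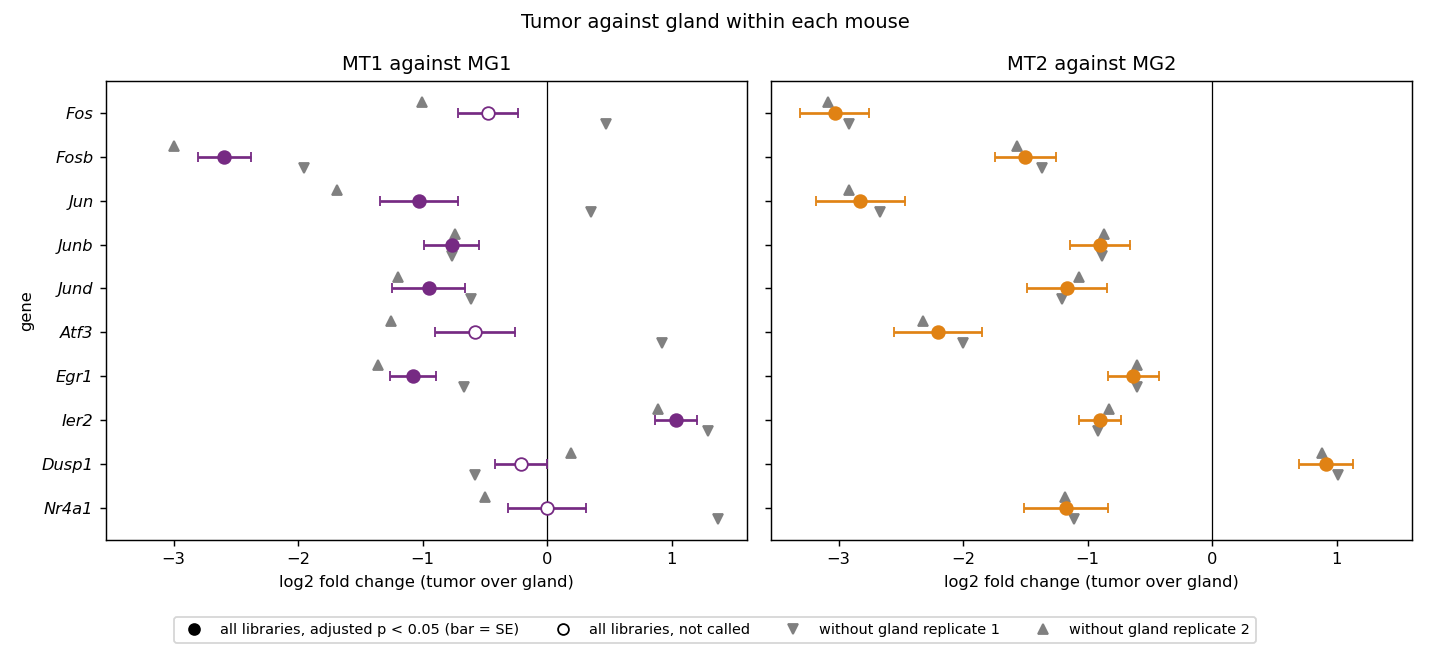
Log2 difference of tumor against gland for each member in each mouse, from the edgeR fit over all genes, with bars for the SE, filled circles for called and open circles for uncalled members, and grey triangles for the value without gland replicate 1 (down) or 2 (up). Dusp1 is the only member above 0 in MT2 against MG2, and Ier2 the only called member above 0 in MT1 against MG1.

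The median log2 difference over the 10 members was -0.67 in MT1 against MG1 and -1.17 in MT2 against MG2, beside 0.10 and -0.05 over all genes tested. The MT1 median rests in part on MG1 replicate 1. Without that library Fos, Jun, Atf3 and Nr4a1 were positive (0.47, 0.35, 0.92 and 1.37). The 2 mice differed from each other in 7 of the 10 members, by the test of the difference of differences, beside 43.5% of all genes. The tumor-gland difference was more positive in the first mouse for Fos by 2.56 (SE 0.38, adjusted p = 3.33e-05), Ier2 by 1.94 (SE 0.24), Jun by 1.80 (SE 0.49), Atf3 by 1.62 (SE 0.49, adjusted p = 0.0127) and Nr4a1 by 1.17 (SE 0.46, adjusted p = 0.0493), and more negative for Dusp1, at -1.12 (SE 0.30), and Fosb, at -1.09 (SE 0.33). Of these calls, that of Nr4a1 was lost with 9 of the 12 libraries left out in turn (all but MG1 replicate 1, MT1 replicate 3 and MT2 replicate 3), with differences from 0.66 to 2.54 and adjusted p up to 0.143. That of Fosb was lost without MG1 replicate 1 (-0.47, adjusted p = 0.181) or MG2 replicate 2 (-0.96, adjusted p = 0.0855), and that of Atf3 without MG2 replicate 1 (1.48, adjusted p = 0.0561). Egr1 passed without MG1 replicate 2 (-0.74, adjusted p = 0.0265). Junb, Jund and Egr1 did not pass that test, with 95% intervals of -0.56 to 0.84, -0.72 to 1.15 and -1.05 to 0.16, from the t distribution with the test's degrees of freedom. With 1 value per mouse and tissue, 0 of 10 members and 0 of 14971 genes passed in tumor against gland by edgeR, with the mouse as a block. At an unadjusted p under 0.05 there were 4 members (Fosb, Jun, Atf3 and Jund) and 2209 genes, and DESeq2 called 2 members.

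The tumors were also compared directly, since both come from Brca1 mutant mice. MT1 was higher than MT2 in 7 of 10 members and lower in Dusp1, beside 35.2% of all genes higher and 33.0% lower. The log2 differences were 2.69 for Fos (SE 0.25), 2.63 for Atf3 (SE 0.32), 2.50 for Jun (SE 0.32), 2.48 for Nr4a1 (SE 0.29), 1.74 for Ier2 (SE 0.14), 1.37 for Jund (SE 0.28) and 0.80 for Junb (SE 0.20). For Dusp1 the difference was -1.23 (SE 0.16, adjusted p = 2.75e-06). Fosb (-0.38, adjusted p = 0.0982) and Egr1 (0.31, adjusted p = 0.116) did not pass, though Fosb did without either MG1 library or MT1 replicate 2 (-0.53 to -0.38), by RLE scaling (-0.43, adjusted p = 0.0456) and with the MT1 and MT2 libraries fitted alone (-0.38, adjusted p = 0.0207), and Egr1 without MG1 replicate 2 (0.31, adjusted p = 0.0497). These comparisons share the MT1 and MT2 libraries with those above.

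Between the glands, 0 of 10 members passed in MG1 against MG2, beside 5.36% of all genes called. At an unadjusted p under 0.05 there were 6 members, beside 2878 of 13666 genes. DESeq2 called 2 members (Jund and Egr1), and the smallest adjusted p by edgeR was 0.054, for Nr4a1 (log2 difference 1.31, SE 0.38). Without MG1 replicate 2 the count was 7, all higher in MG1, and without MG1 replicate 1 it was 1, Fos, which was lower in MG1 (-0.81, adjusted p = 0.0142). Without MT1 replicate 2, which enters through the shared estimate of spread, the count was 4. The shares of all genes in these alternative fits are not given here, so no result about the members is read from these counts.

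By the summed level, and by the median SD over members, libraries of the same tissue differed most in MG1, while Junb and Jund differed more in MT1. The summed level of the 10 members was 14610 CPM in MG1 replicate 1 and 6306 CPM in MG1 replicate 2, in CPM scaled between libraries. Without that scaling the members made up 1.32% and 0.701% of all UMIs in the cells summed. In MG2 it was 7097 and 6494 CPM, in MT1 4758, 7349, 5598, 5864 and 5353 CPM, and in MT2 2278, 1965 and 2459 CPM. The summed levels of MG2, MT1 and MG1 replicate 2 lay in a common range, MG1 replicate 1 stood above it and MT2 below.

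The ratio of MG1 replicate 1 to replicate 2 was 4.54 for Atf3, 4.12 for Jun, 3.68 for Nr4a1, 2.79 for Fos and 2.07 for Fosb. It was 1.61 for Egr1, 1.5 for Jund, 1.33 for Ier2 and 0.985 for Junb, and Dusp1 was lower in replicate 1, at 0.586. The genes of AP-1 and of the early response thus did not move by a common factor between these libraries, and Junb and Dusp1 were not higher in replicate 1. MG1 replicate 1 had the highest mitochondrial share of the 12 libraries (11.495%, against 8.53% in replicate 2). MG1 replicate 2 had the fewest cells, 105, of which 27.62% were stromal, against 16.41% in replicate 1. The part of these features in the difference was not tested.

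The difference within MG1 was also read within cell classes. In hormone-sensing-like luminal cells the ratio was 5.25 for Jun, 4.20 for Atf3, 2.92 for Nr4a1 and 2.50 for Fos. In secretory-like luminal cells it was 5.32 for Nr4a1, 3.57 for Atf3, 2.86 for Fos and 1.99 for Jun. Basal-like cells had 2.47 for Nr4a1, 2.32 for Jun, 1.93 for Atf3 and 1.51 for Fos, and fibroblast-like cells 2.89 for Fos, 2.85 for Jun and 2.44 for Atf3. The excess of Fos, Jun and Atf3 in replicate 1 was therefore present in all 4 classes. Dusp1 was below 1 in all 4 (0.318 to 0.862), and Junb in 3 (0.573 in fibroblast-like, 0.700 in hormone-sensing-like and 0.919 in basal-like cells). Nr4a1 (0.720) and Egr1 (0.644) were below 1 in fibroblast-like cells, and Ier2 in secretory-like (0.948) and basal-like cells (0.875). These ratios rest on 13 to 33 cells of replicate 2 per class, with 4 to 31 UMIs of Nr4a1 and 21 to 41 of Ier2. No direction is therefore read from the class ratios of Ier2 and Nr4a1, whether above or below 1.

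Part of the first comparison rests on MG1 replicate 1. With either MG1 library left out, MG1 is a single library, whose spread is assumed to be that of the other groups, and replicate 2 has 76 cells outside the stromal clusters. Without replicate 1, MT1 against MG1 turned to higher for Fos (log2 difference 0.47, adjusted p = 0.0443), Atf3 (0.92, adjusted p = 0.00129) and Nr4a1 (1.37, adjusted p = 0.00960). Jun was then at 0.35 (adjusted p = 0.208) and Jund lost its call (-0.61, adjusted p = 0.159), and 7 members passed, 4 higher and 3 lower. Without MG1 replicate 2, Fos (-1.01) and Atf3 (-1.25) fell, and 8 members passed, 1 higher and 7 lower. Fosb, Junb, Egr1 and Ier2 kept their direction and call without either library. In MT2 against MG2 all 10 members kept their direction with each of the 12 libraries left out in turn, and Egr1 was the only one to lose its call. Egr1 also lost it without the filter on low counts (-0.53, adjusted p = 0.0542).

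**Figure D3:**
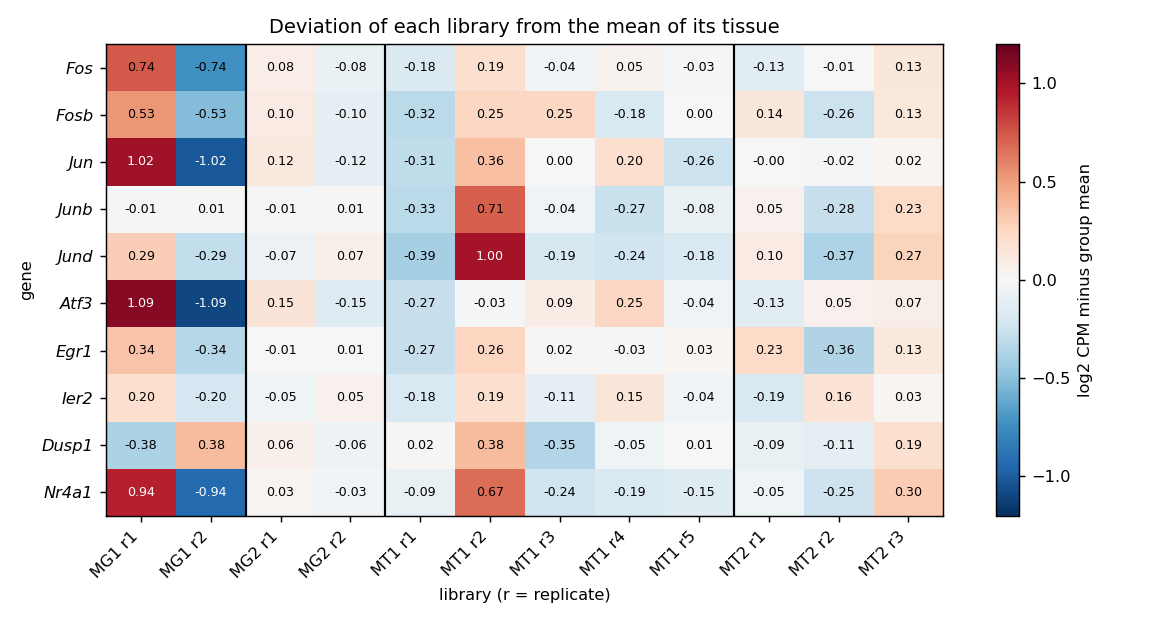
Deviation of each library from its group's mean log2 CPM for each of the 10 members, in log2 units, with libraries grouped by tissue. MG1 replicate 1 lies above replicate 2 for 8 of 10 members, and MT1 replicate 2 is the highest of its group in 9.

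In MT1, replicate 2 was the highest of the 5 libraries for 9 of the 10 members, all but Atf3, and replicate 1 the lowest for 8. Replicate 2 stood at 2.38 times the mean of the other 4 libraries for Jund, 1.85 times for Junb and 1.78 times for Nr4a1, but at 1.18 times for Fos and Ier2 and 0.968 times for Atf3. The gap was thus wide for Jund and Junb and narrow for Fos. Its median UMIs per cell, 2892.5, was the highest of the 5, beside 1784 to 2216 in the others, and the part of depth per cell in the gap was not tested. In MT2, replicate 3 was the highest for 7 members and replicate 2 the lowest for 7.

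As a description of noise, the SD of log2 CPM within a group had a median over the 10 members of 0.643 in MG1 and 0.0932 in MG2, and for the tumors of 0.257 in MT1 and 0.201 in MT2. Over all genes tested the same medians were 0.414, 0.156, 0.251 and 0.164. Pooled over the 12 libraries the members had 0.365 and all genes 0.314, and genes with a mean of at least 100 CPM had 0.198. By group, genes at that level had 0.294, 0.094, 0.162 and 0.136. Beside genes of at least 100 CPM the members' median was thus higher in MG1, MT1 and MT2 and about the same in MG2.

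Cell classes were compared next, since the groups hold different cells. The glands are mostly hormone-sensing-like, secretory-like and basal-like, MT1 is made of clusters 3 (led by Sfrp1), 4 (led by Ccl20) and 5 (led by Prl2c3 and Cav1), and MT2 of clusters 1 (led by Grem1 and Ptgs2) and 2 (led by cell division genes such as Top2a). For the library sums above, a change in the kind of cells and a change in level per cell cannot be told apart. Clusters were built without 68 stress genes, the members among them.

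Among the 3 main clusters of MT1, cluster 3 had the highest summed level, 6958 ± 1158 CPM (SD, n = 5), cluster 4 had 5485 ± 590 and cluster 5 had 3145 ± 553. In each of the 5 libraries, cluster 3 was above cluster 5 for Fos (ratios 3.02 to 4.07), Jun (2.32 to 3.02), Ier2 (2.23 to 3.31) and Nr4a1 (4.15 to 8.41). Cluster 5, which has high Vim and low Epcam, was also below cluster 4 in all 5 libraries for Fos, Fosb, Jun, Junb, Atf3, Egr1, Ier2 and Nr4a1. Atf3 was the exception to the order of the epithelial clusters, since it was lower in cluster 3 than in cluster 4 in 5 of 5 libraries (ratios 0.723 to 0.931). Dusp1 was higher in cluster 3 than in cluster 4 in 5 of 5 libraries (ratios 1.10 to 1.92) and than in cluster 5 in 4 of 5 (0.923 to 1.52).

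MT2 clusters 1 and 2 were low alike, with summed levels of 2082 ± 267 and 2198 ± 264 CPM (n = 3). Fos was at 182 ± 5.38 CPM in cluster 1 and 233 ± 47.8 CPM in cluster 2, and Jun at 167 ± 8.04 and 193 ± 15.8 CPM. In MT1 cluster 5, Fos was at 551.5 ± 78.2 CPM and Jun at 513 ± 93.1 CPM (n = 5). The low Fos and Jun of MT2 thus appeared in dividing and other clusters. Dusp1 was at 335 ± 43.4 CPM in cluster 1 and 286 ± 38.5 CPM in cluster 2, above its level in each MT1 cluster, where the means were 122.5 to 156 CPM. Fibroblast-like cells of the same MT2 libraries had 1.94 to 4.41 times the Fos and 1.97 to 4.51 times the Jun of cluster 1, in 3 of 3 libraries.

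**Figure D4:**
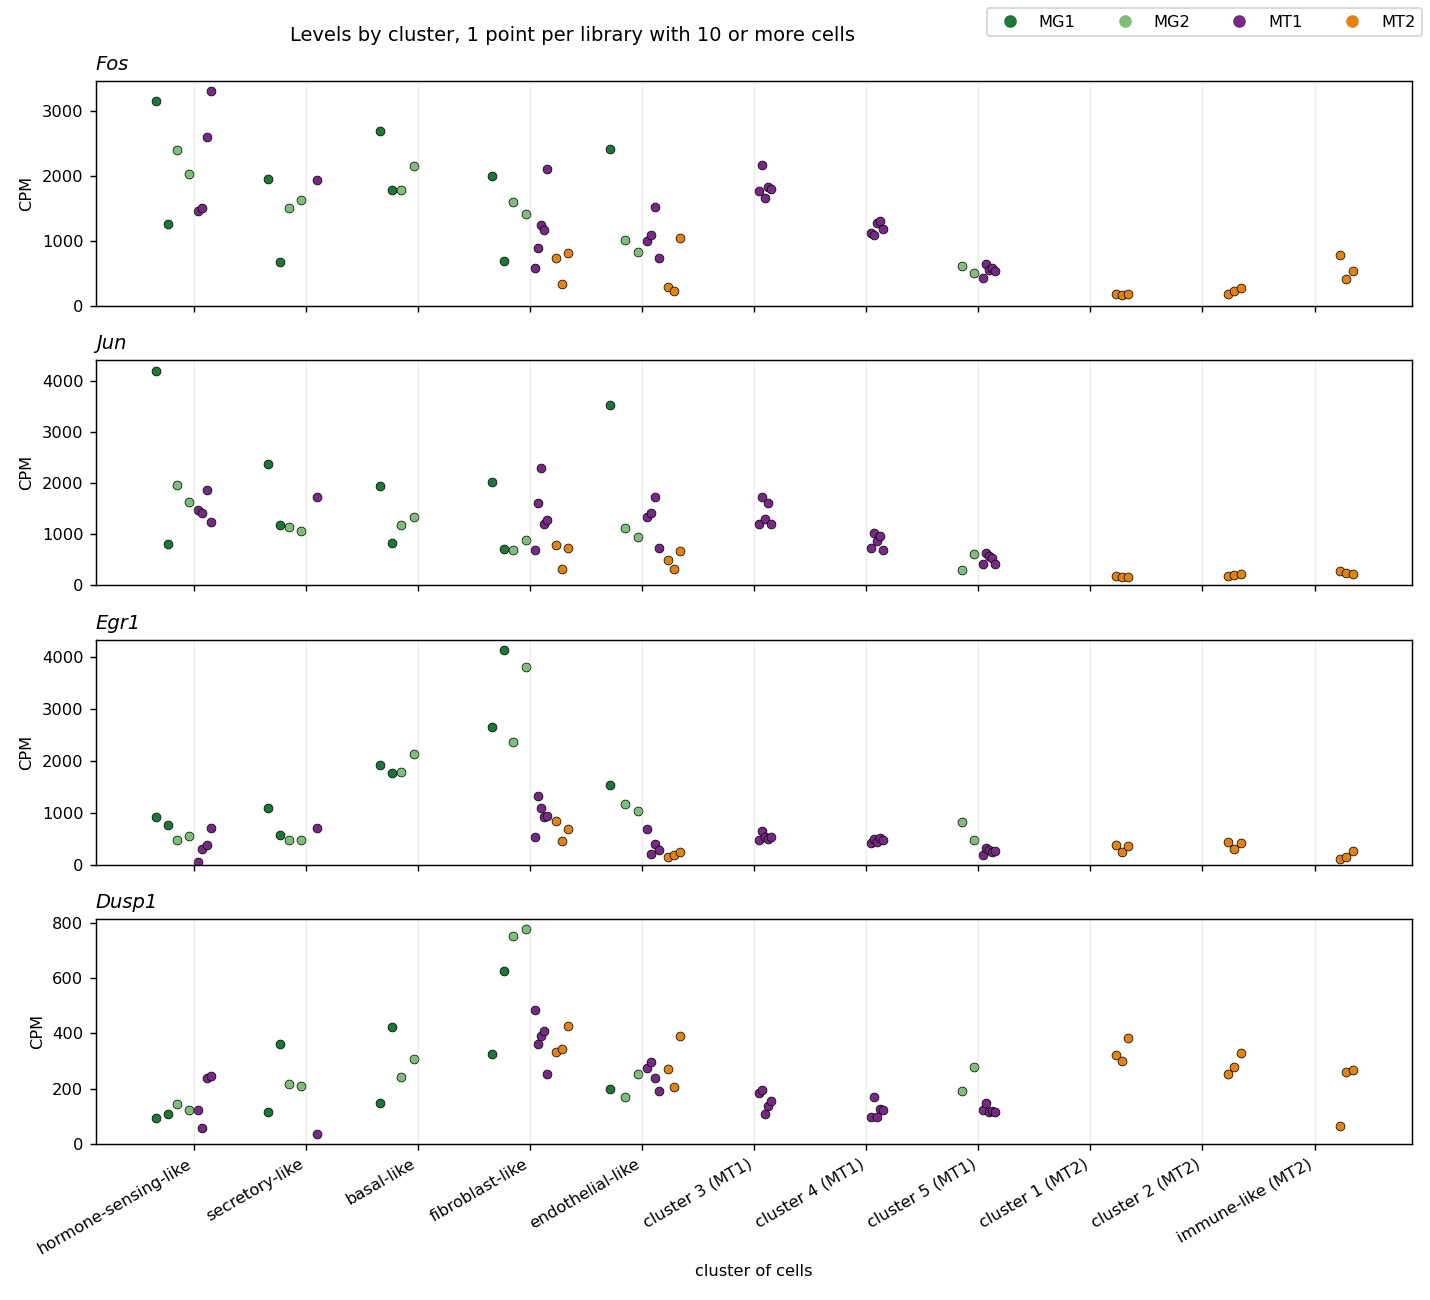
Level of Fos, Jun, Egr1 and Dusp1 in CPM (linear axes from 0) by cell class or cluster and group, with points for library sums of at least 10 cells. Egr1 is highest in fibroblast-like cells of the glands, and Fos and Jun are lowest in MT2 clusters 1 and 2.

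Within the glands the members differed by class in different ways. Egr1 was highest in fibroblast-like cells, which had 2.90 to 6.93 times the level of hormone-sensing-like cells in 4 of 4 gland libraries, and basal-like cells had 2.08 to 3.87 times that level. Nr4a1 was 3.42 to 5.55 times higher in basal-like than in hormone-sensing-like cells, and Dusp1 3.52 to 6.29 times higher in fibroblast-like than in hormone-sensing-like cells, each in 4 of 4. Fos, Jun and Atf3 were lower in fibroblast-like than in hormone-sensing-like cells in 4 of 4 libraries (ratios 0.549 to 0.694, 0.354 to 0.890 and 0.501 to 0.862). Jund was lower in basal-like cells, at 0.430 to 0.626 times the hormone-sensing-like level. Hence the gland class with the most Egr1 and Dusp1 was not the class with the most Fos, Jun and Atf3.

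In fibroblast-like cells, tumor and gland were compared within a class, but the class was not alike across groups. Its marker Col3a1 was at 1169 CPM in MG1, 5804 CPM in MG2, 10200 CPM in MT1 and 13860 CPM in MT2. A difference in the cells that the class holds and a change in level per cell cannot be told apart here. Egr1 was at 2665 and 4139 CPM in the MG1 sums, 2372 and 3819 CPM in those of MG2, 534, 1324, 1095, 914 and 929 CPM in those of MT1 and 836, 447 and 695 CPM in those of MT2. Every tumor library lay below every gland library. Egr1 fell by 2.04 in MT1 (SE 0.30, adjusted p = 2.19e-05) and by 2.38 in MT2 (SE 0.34, adjusted p = 1.45e-05) on the log2 scale. Sums rested on 13 to 110 cells per library.

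Altogether 5 of 10 members fell in fibroblast-like cells of MT1 and 0 rose, beside 19.9% of 3814 genes that fell and 17.8% that rose. Besides Egr1 they were Junb (-2.01, SE 0.32), Nr4a1 (-1.48, SE 0.41), Fosb (-1.41, SE 0.29) and Jund (-0.93, SE 0.35, adjusted p = 0.0367), and Jund lost its call without any of 5 single libraries (MG1 replicate 1, MG2 replicate 2, and MT1 replicates 1, 4 and 5), with adjusted p up to 0.147. In MT2 8 of 10 fell and 0 rose, beside 12.6% that fell and 8.97% that rose. These were Nr4a1 (-2.97, SE 0.46), Egr1, Atf3 (-1.77, SE 0.38), Fos (-1.40, SE 0.41), Dusp1 (-1.22, SE 0.30), Fosb (-1.08, SE 0.31), Jund (-1.06, SE 0.38) and Junb (-1.03, SE 0.34).

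Dusp1 therefore fell in MT2 fibroblast-like cells while it rose in the cells outside the stromal clusters. It was at 755 and 778 CPM in the MG2 fibroblast-like sums and at 332, 342 and 426.5 CPM in those of MT2, without overlap. The MT2 count rested on single libraries: it was 2 without MG2 replicate 2, 4 without MT2 replicate 2 and 5 without MG2 replicate 1 or by DESeq2. Egr1 and Nr4a1 kept their calls with each library left out, and Jund lost its call without any of 8 single libraries (adjusted p up to 0.247).

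Free RNA may add to these class levels. Epcam, which fibroblasts lack, was read in fibroblast-like cells at 423, 399 and 457 CPM in MG1, MG2 and MT1 and at 0 CPM in MT2, where the main clusters hold too little Epcam for it to measure free RNA, beside 3431 and 4244 CPM in hormone-sensing-like gland cells. Its part in the levels of the members was not tested. The fibroblast-like levels of Egr1 and Dusp1 in the glands were above those of the epithelial classes of the same libraries, and those of Fos, Jun and Atf3 below the hormone-sensing-like class.

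In the hormone-sensing-like class, 67 cells came from MT1 and 4 of its libraries gave sums of 10 to 20 cells. Fosb (-2.11, SE 0.32, adjusted p = 0.00190), Egr1 (-1.52, SE 0.42, adjusted p = 0.0326) and Jund (-1.24, SE 0.29, adjusted p = 0.0148) fell in MT1 against MG1, 3 of 10 with 0 that rose, beside 7.77% of 4108 genes that fell and 3.09% that rose. Egr1 lost its call without any of 4 single libraries (MG2 replicates 1 and 2, MT1 replicates 3 and 4; adjusted p up to 0.0945), and Jund without MG1 replicate 1 or MT1 replicate 4 (adjusted p up to 0.0509). Without MG1 replicate 1, Ier2 rose (1.16, adjusted p = 0.035). The count was 0 without the filter on low counts, 5 without MG1 replicate 2 and 1 without MT1 replicate 4. In endothelial-like cells of MT2 against MG2, Egr1 (-2.73, SE 0.38, adjusted p = 2.78e-06) and Jun (-1.15, SE 0.33, adjusted p = 0.00962) fell and 0 rose, beside 13.6% of 2189 genes that fell and 9.78% that rose. There the count was 4 without the filter, 1 without MG2 replicate 1 or MT2 replicate 2, where Jun lost its call (adjusted p of 0.0542 and 0.0557), and 3 without MT2 replicate 1 or 3 or without MT1 replicate 2 or 4.

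The share of cells with at least 1 UMI shows whether a level is carried by many cells. Each cell outside the stromal clusters was thinned to 1000 UMIs, and no cell was shallower. Fos was then found in 57.1 ± 12% of MG1 cells (SD over libraries), 65.5 ± 1.41% of MG2 cells, 56.2 ± 3.27% of MT1 cells and 12.9 ± 0.794% of MT2 cells. Without thinning the same shares were 85.9, 83.5, 74.9 and 29.5%. Jun was found in 61.0 ± 30.5%, 61.3 ± 2.95%, 50.05 ± 7.14% and 12.9 ± 0.433% of thinned cells, in the same order. For both genes every MT2 library lay below every other library.

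Dusp1 was found in 17.5 ± 10.6% of thinned cells of MG1, 15.1 ± 1.07% of MG2, 11.7 ± 2.53% of MT1 and 24.2 ± 1.56% of MT2, and without thinning in 44.0, 31.9, 24.2 and 55.0%. The MG1 libraries spanned 10.1 to 25% and overlapped MT2. Cells with none of the 10 members made up 3.05 ± 3.13%, 4.16 ± 0.597%, 5.68 ± 1.90% and 23.9 ± 2.63% in the same order. Without thinning these shares of cells with no member were 0.658, 0.424, 1.2 and 3.91%.

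No class known to lack these genes was at hand as a background. The lowest class share of Fos was 11.63% (95% exact binomial interval 10.8 to 12.5%) of 5829 cells in MT2 cluster 1 and 14.46% in cluster 2, and in immune-like cells of the same libraries it was 38.07%, all in cells thinned to 1000 UMIs. Before thinning the median depths of these 3 classes were 2961, 3453 and 2287 UMIs. Intervals cover counting error only. The MT2 shares of Fos and Jun therefore may hold a part that is free RNA, which was not tested.

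**Figure D5:**
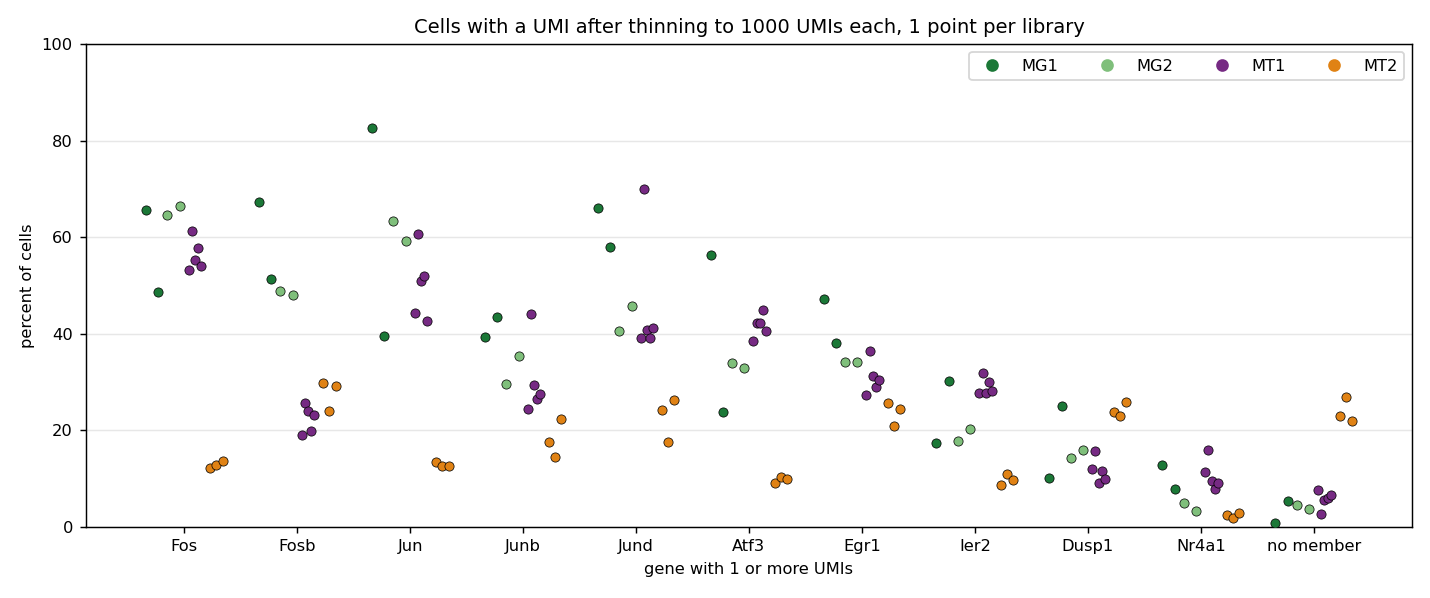
Share of cells, in percent, with at least 1 UMI of each member after thinning each cell to 1000 UMIs, with points for libraries, by group. The 3 MT2 libraries lie between 12.1 and 13.7% for Fos and Jun, and the other libraries at 39.47% or more.

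Within libraries, cells rich in Fos were also richer in the other members. Cells with 3 or more Fos UMIs after thinning were compared with cells with none. This is a description with no test, since cells of a library are not replicates. Cells of all clusters outside the stromal ones were pooled here. Clusters differ in several members together, as in MT1 above, and the part of this in the ratios was not tested. The Fos-rich cells numbered 9 in MG1 replicate 2, which gave the lowest ratios of Jun and Dusp1, 51 to 85 in the MT2 libraries, which gave the highest of Jun, and 134 to 439 in the others. The mean Jun level was 2.01 to 21.8 times higher in the Fos-rich cells in 12 of 12 libraries (median 4.32), Atf3 was 3.10 to 19.3 times higher and Egr1 2.42 to 8.11 times higher. Jund, at 1.2 to 2.31 times, and Junb, at 1.53 to 2.96 times, were tied less to Fos. Dusp1 too was higher in the Fos-rich cells of 12 of 12 libraries (1.30 to 7.14 times), although by group it was highest in MT2, where Fos was lowest. The top 10% of cells by summed member UMIs held 30.8 to 42.1% of all member UMIs. Since this share also rises as the mean UMI count falls, the libraries were not ranked by it.

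Likeness over libraries was measured by Pearson's r between a gene's log2 CPM and the mean of the 10 members' standardized log2 CPM, over 12 libraries, which share tissue and mouse within 4 groups. Among the members r was 0.966 for Jund, 0.960 for Jun and 0.928 for Fos, but 0.567 for Fosb, 0.568 for Ier2 and -0.724 for Dusp1. Each member is part of the mean it is set against. Of 6212 genes with a mean of at least 20 CPM, the 5 others most alike were Csrnp1 (0.976), Actn4 (0.964), Ccnt1 (0.960), Tcf7l2 (0.960) and Csrp1 (0.959). With deviations from group means in place of levels, they were Nop53 (0.969), Rhob (0.964), Lamtor4 (0.962), Anapc11 (0.957) and Tsc22d4 (0.956), and Dusp1 was at -0.13. The lists by level and by deviation shared 0 genes.

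Genes of the same pathway were read in 4 lists, by the counts that passed in tumor against gland. Of all 13666 genes tested, 27.1% fell and 32.3% rose in MT1, and 34.2% fell and 32.6% rose in MT2. Of 13 other AP-1 and ATF genes, 5 fell and 1 rose in MT1, and 8 fell and 3 rose in MT2, with median log2 differences of -0.33 and -0.70. Jdp2, a Jun dimerization partner, fell from a mean of 46.2 CPM in MG1 to 14.6 CPM in MT1 (log2 difference -1.67, SE 0.19) and from 85.3 to 21.7 CPM in the second mouse (-1.97, SE 0.16). Fosl2, a Fos family member, fell in both (-0.998 and -1.24), as did Creb5 (-0.81 and -4.27). Batf3 rose in MT1 (2.72) and fell in MT2 (-1.85), at means of 0.839 to 13.3 CPM. The call of Creb5 in MT1 was lost without MG1 replicate 1 (-0.26, adjusted p = 0.449).

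Of 33 other immediate early genes, 9 fell and 8 rose in MT1, and 17 fell and 8 rose in MT2, with medians of -0.09 and -0.57. The MT1 counts were near or below the shares of all genes. Nr4a3, the nuclear receptor related to Nr4a1, fell from 62.0 to 2.63 CPM in the first mouse (log2 difference -4.56, SE 0.29) and from 26.3 to 5.31 CPM in the second (-2.30, SE 0.25). Egr3 (-1.58 and -1.52) and Gadd45b (-1.03 and -1.76) fell in both. Klf2 (2.25 and 2.15), the NF-kB target Tnfaip3 (1.18 and 1.88) and Nfkbiz (1.63 and 0.62) rose in both. Without MG1 replicate 1, Egr3 (-0.27, adjusted p = 0.645) and Gadd45b (-0.30, adjusted p = 0.376) lost their calls in MT1, and Nfkbiz lost its call in MT2 without either MG2 library or MT2 replicate 2 (adjusted p up to 0.190) and with stromal cells (adjusted p = 0.0746). Nr4a2 fell in MT1 (-0.83) and rose in MT2 (1.33), and Dusp6, another MAP kinase phosphatase, rose in MT1 (1.05) and fell in MT2 (-1.37). Dusp1 and Dusp6 were thus called in opposite directions in MT2.

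Of 12 heat shock genes, which respond to unfolded protein, 6 rose and 4 fell in MT1, and 6 rose and 3 fell in MT2, with medians of 0.25 and 0.29. The mitochondrial chaperones Hspe1 (2.22 and 2.33) and Hspd1 (1.48 and 1.42) and the cytosolic Hsph1 (1.15 and 1.88) rose in both tumors, while Bag3 (-1.44 and -1.06) and Hsp90aa1 (-1.04 and -0.52) fell. Of 15 kinases and factors upstream of the members, 6 fell and 1 rose in MT1, and 5 fell and 3 rose in MT2, with medians of -0.22 and -0.12. Srf (-2.73 and -1.06), the JNK gene Mapk8 (-0.84 and -1.04) and Rps6ka3 (-1.02 and -0.57) fell in both, and Mapkapk2 had log2 differences of -0.78 in MT1 and 0.43 in MT2. Both Mapkapk2 calls were lost in thinned cells (adjusted p of 0.0557 and 0.147), and that in MT2 also by DESeq2, with stromal cells and without the highest doublet scores (adjusted p of 0.0518 to 0.0862). Single libraries decide several of these calls. Hsp90aa1 in MT2 was lost without the filter on low counts (adjusted p = 0.0801) and without either MG2 library, MT2 replicate 2 or MT1 replicate 1, 2 or 5 (adjusted p up to 0.134), Rps6ka3 without MG1 replicate 1 in MT1 (adjusted p = 0.0938) and without MG2 replicate 1 in MT2 (adjusted p = 0.154), and Mapkapk2 in MT2 without any of 5 libraries (both of MG2, MT2 replicates 1 and 3, and MT1 replicate 4; adjusted p up to 0.196). The count of the upstream list was 4 without MG1 replicate 1 in MT1 and 5 without MG2 replicate 1 in MT2. These lists are read beside the background shares of all genes given with the first comparison.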

How the data were processed

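The deposited table holds UMI counts for 21743 genes and 21157 cells of 12 libraries. The authors made these counts with the Drop-seq tools and STAR on GRCm38.p6, and counting by strand and the treatment of reads with several matches are not given in the sources used here. No cell column was without a sample (0). Every cell had at least 800 detected genes. The members and gene lists were chosen with earlier results of these data known.

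Clusters were made by the Leiden method (leidenalg 0.10.2, scanpy 1.11.5, 3000 variable genes without 68 stress genes, 30 components, 20 neighbours, resolution 0.6). A cluster was called X-like where at least 3 markers of X, and at least 50% of its list, had a log2 fold of 1 or more (pseudocount 10 CPM), by the list with the largest such share. A cluster that met this for no cell type was called epithelial where at least 3 general epithelial markers passed, and otherwise left unnamed. The doublet caller marked 44 cells (0.208%), which is too few to have worked, so no cell was removed. The 1117 cells of the 3 stromal clusters (fibroblast-like, immune-like, endothelial-like) were left out of the library sums, and 20040 cells were kept.

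Counts were summed per library, or per library and class where there were at least 10 cells. Sums were fitted over all 4 groups with edgeR 4.0.16 in R 4.3.3 (TMM scaling, filterByExpr, quasi-likelihood test, two-sided), with Benjamini-Hochberg adjustment over all genes tested and a threshold of 0.05. The SE is the log2 difference divided by the square root of F. Where leaving out a library left a group with 1, its spread was taken from the other groups. The script was tested on simulated data. Levels from library sums are TMM-scaled CPM, and levels by class or cluster and those of Brca1 are unscaled CPM. For 1 value per mouse and tissue the mouse, which the labels give, was a block. Replicate numbers follow accession order and pair nothing. For shares, each cell was thinned to 1000 UMIs, which left out 0 cells. Alternatives were DESeq2 1.42.0, RLE scaling, no filter, all cells, thinned cells, clustering with the members, each contrast's groups alone, 61 gland cells of tumor clusters removed, 1064 cells of the highest doublet scores removed, and each library left out.

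Named genes are the 10 members; in each related list up to 3 per direction with the largest smaller change among genes called in both mice and up to 2 called in opposite directions; and the 5 most alike by each of 2 measures. Promoters come from RefSeq and gene positions from GENCODE vM21.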

Additional observations from a re-analysis of the deposited data

Results flagged for a closer look

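MT1 was the only group with at least 4 libraries, so libraries of MG1, MG2 and MT2 could not be tested for standing apart. Among 88 sets of MT1 libraries, 16 had a library farther from the rest than Dixon's 95% limit, where chance gives about 1 in 20, and 15 of the 16 were MT1 replicate 2. These sets share libraries and cells and are not independent. In its cells outside the stromal clusters this library had 628 CPM of Junb, 1271 CPM of Jund and 191 CPM of Nr4a1, and Junb was found in 44.0% and Jund in 69.9% of its thinned cells. In cluster 3 it had 701 CPM of Junb, 1421 CPM of Jund, 281 CPM of Nr4a1 and a summed member level of 8960 CPM. In cluster 4 it had 609 CPM of Junb and 1159 CPM of Jund, and in cluster 5 it had 1007 CPM of Jund, 148 CPM of Dusp1 and 67.7 CPM of Nr4a1. In its endothelial-like cells Nr4a1 was at 201 CPM. Jund stood apart in this library in each of the 3 MT1 clusters.

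The other such value was Nr4a1 at 245 CPM in the hormone-sensing-like cells of MT1 replicate 5, a sum of 14 cells.

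The tumor-gland difference of the first mouse, less that of the second, passed edgeR's test for 7 members, on the log2 scale by 2.56 for Fos, 1.94 for Ier2, 1.80 for Jun, 1.62 for Atf3, 1.17 for Nr4a1, -1.12 for Dusp1 and -1.09 for Fosb. Each group is 1 tissue of 1 mouse, so mouse and preparation cannot be told apart.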

How the results depend on the processing

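Of the members' log2 differences under the alternative settings, 1473 kept their direction and side of the threshold, 64 lost and 52 gained a call and 39 changed sign, and the cause of each change was not tested. With each library left out in turn, MT1 against MG1 ranged from -1.01 to 0.47 for Fos, -1.69 to 0.35 for Jun, -1.25 to 0.92 for Atf3, -0.58 to 0.19 for Dusp1 and -0.50 to 1.37 for Nr4a1. MG1 against MG2 ranged from -0.81 to 0.68 for Fos, -0.67 to 1.38 for Jun, -0.50 to 1.70 for Atf3, -0.50 to 0.26 for Dusp1 and -0.076 to 1.82 for Nr4a1, and the difference between the mice from -0.25 to 0.25 for Junb and -0.29 to 0.54 for Jund. Within hormone-sensing-like cells the ranges were -0.71 to 0.54 for Fos, -1.69 to 0.63 for Jun, -1.37 to 0.63 for Atf3 and -0.46 to 1.21 for Nr4a1, and within fibroblast-like cells of MT1 -1.06 to 0.51 for Fos and -0.83 to 0.72 for Jun.

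Sign changes under other settings were of values that did not pass the test. Nr4a1 in MT1 against MG1 was 0.084 with no filter, 0.013 without gland cells of tumor clusters and 0.0089 without the highest doublet scores, and in hormone-sensing-like cells -0.48 with at least 20 cells per sum and -0.19 with no filter. In MG1 against MG2, Ier2 was 0.14 in thinned cells, and Dusp1 was 0.0074 by DESeq2, 0.0044 by RLE scaling, 0.13 with stromal cells and 0.023 with only those groups. Junb differed between the mice by -0.016 by DESeq2 and -0.027 by RLE scaling. Single calls gained in MT1 against MG1 were Fos by RLE scaling (-0.60), Atf3 in thinned cells (-0.65) and Dusp1 with stromal cells (-0.57), and in the difference between the mice Egr1 with stromal cells (-0.66). Nr4a1 lost that call by DESeq2, RLE scaling, thinning and no filter (0.57 to 1.15).

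The count of members called in MG1 against MG2 (0) was 2 by DESeq2, 3 by RLE scaling, 2 with stromal cells, 1 in thinned cells, 1 with clustering on the members, 1 without the highest doublet scores and 0 to 7 with a library left out. In endothelial-like cells (2) it was 4 with no filter and 1 to 3 with a library left out, in hormone-sensing-like cells (3) 0 with no filter and 1 to 5, and in fibroblast-like cells of MT2 (8) 5 by DESeq2 and 2 to 8. With 1 value per mouse and tissue, the count of 0 with the mouse as block was 0 with no replicate block and 2 by DESeq2 (Fosb and Jun). The upstream list in MT1 had 4 calls in thinned cells.

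Thinned to 500 UMIs, cells with no member made up 7.70, 12.3, 17.3 and 43.5% in MG1, MG2, MT1 and MT2, and unthinned 0.658, 0.424, 1.2 and 3.91%. MG1 replicate 2, with 105 cells, had the fewest cells and total UMIs of the 12 libraries, and some class sums held 10 to 20 cells.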
